A study of Homo sapiens with 8 samples.

Results

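The Krüppel-like factors (KLFs) are transcription factors that bind GC-rich and CACCC sequences through zinc fingers at the carboxyl end of the protein. The family divides by partner proteins: KLF9, KLF10, KLF11, KLF13 and KLF16 recruit the SIN3A corepressor, while KLF2, KLF4, KLF5, KLF6 and KLF7 are mostly described as activators. Several of them are rapidly induced by growth factors, TGF-β or stress, and in breast epithelium KLF4 and KLF5 are known for opposing roles in differentiation and proliferation. The 10 KLF genes described here (KLF2, KLF4, KLF5, KLF6, KLF7, KLF9, KLF10, KLF11, KLF13 and KLF16) were taken by gene symbol from the deposited count table. They are 10 of its 55679 gene identifiers, and all 10 passed the filter on low counts. The 10 were chosen with earlier results of these data known.

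The RNA-seq libraries came from MDA-MB468 and BT549, both established triple-negative breast cancer cell lines. Each line was studied as parental cells and as CE cells, which had been chronically exposed to rising concentrations of Acetalax (oxyphenisatin acetate, a former laxative) up to 40 μmol/L and were used after 2 weeks without the drug. The CE cells were described as resistant clones. Each of these 4 backgrounds was sequenced without Acetalax (control) and after 6 hours in 1 μmol/L Acetalax, giving 8 libraries with 1 library per condition. No condition has a replicate, so the ratio of a treated to a control library compares those libraries, and the tests below use the 2 lines and the 2 exposure histories as the only repeats. A vehicle for the control cells is not given in the sources used here.

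Of the 10 genes, 9 have RefSeq promoter windows on GRCh38.p14, 14 windows in all, and KLF10 has none in that table. The 250 bases before the transcription start are shown for KLF4 and KLF6, the members with the largest fold changes after Acetalax among those with a window. Capitals mark matches on either strand to the GC box (GGGCGG) and the E-box (CACGTG), and in KLF6 also to the CCAAT box. No matches overlapped each other in these windows. Both lie on the minus strand and are printed 5′ to 3′ in the direction of transcription, KLF4 from chr9:107489770-107490019 and KLF6 from chr10:3785210-3785459.
KLF4: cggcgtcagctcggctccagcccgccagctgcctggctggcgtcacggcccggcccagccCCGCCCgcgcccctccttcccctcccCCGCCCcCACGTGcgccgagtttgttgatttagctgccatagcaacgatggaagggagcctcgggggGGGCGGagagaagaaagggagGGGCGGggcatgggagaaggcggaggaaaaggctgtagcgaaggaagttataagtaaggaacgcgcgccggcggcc
KLF6: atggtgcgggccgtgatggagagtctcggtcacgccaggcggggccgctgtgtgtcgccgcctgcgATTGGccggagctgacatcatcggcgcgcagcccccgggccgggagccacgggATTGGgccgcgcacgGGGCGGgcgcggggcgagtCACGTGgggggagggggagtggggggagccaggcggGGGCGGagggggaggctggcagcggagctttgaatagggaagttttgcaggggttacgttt

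The KLF4 window holds 4 GC boxes and 1 E-box, and the KLF6 window holds 2 GC boxes, 2 CCAAT boxes and 1 E-box. A GC box was found in 9 of the 14 KLF windows and in 42.6% of all 35116 windows of this length. An E-box was found in 4 of the 14, those of KLF4, KLF6, KLF7 and KLF11, against 6.3% of all windows. CACCC, a sequence that KLF proteins bind, was found in 6 of the 14 and in 54.7% of all. CCAAT was found in 6 of the 14 and in 32.0% of all. The cyclic AMP response element (TGACGTCA) was found in 1 of the 14, a KLF11 window, and in 1.6% of all, the CArG box in 1 of the 14, a KLF7 window, and in 1.2% of all, and the AP-1 site (TGANTCA) in 0 of the 14 and in 6.6% of all. These matches describe letters in a fixed window and no binding was measured.

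The libraries held 42261122 to 54241728 counts on genes. Before further scaling, a gene at 1 CPM (counts on a gene scaled to the library size) thus rested on 42.3 to 54.2 counts. CPM here is further scaled by the trimmed mean of M values (TMM), with factors from 0.8665 (BT549 CE Acetalax) to 1.1 (MDA-MB468 CE control). An interval is a 95% interval computed from the counts of the libraries it describes. It covers counting error only and leaves out any spread between cultures. Amplified reads are not independent molecules, so it may be too narrow even for counting error. The labelled cell type was checked against marker genes. The estrogen receptor gene ESR1 was at 3.42 to 4.92 CPM in MDA-MB468 and at most 0.191 CPM in BT549, PGR was at most 0.65 CPM, and ERBB2 was at 43.4 to 92.2 CPM over both lines. The epithelial markers EPCAM and CDH1 were at 112 CPM or more in MDA-MB468 and below 1 CPM in BT549. KRT5 and KRT17 were also below 1 CPM in BT549. KRT7 and EGFR were at 92.1 to 272 and 259 to 508 CPM in BT549, below their levels in MDA-MB468. The mesenchymal markers VIM and CDH2 were high in BT549 only. Endothelial markers, relevant because KLF2 and KLF4 are best known from vascular endothelium, summed to at most 9.06 CPM over the 4 found. The 5 blood cell markers summed to 6.14 to 44.3 CPM in MDA-MB468, nearly all of it CD14 (6.04 to 44.3 CPM), and to 1.44 to 3.08 CPM in BT549, with PTPRC below 1 CPM and CD3E and HBB at 0 in all libraries. Each level is a mean over all cells of a library, so a change in the share of expressing cells and a change in RNA per cell cannot be told apart.

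To compare levels between genes, counts were divided by the merged exon length and the TMM-scaled library size (FPKM). KLF6, a growth-factor-inducible factor studied as a tumor suppressor, was the most abundant of the 10 in BT549, at 64.8 to 169.5 FPKM over the 4 libraries, and ranked second in MDA-MB468 at 16.99 to 39.0 FPKM. KLF5, a factor of basal epithelial progenitors, ranked first in MDA-MB468 at 30.7 to 36.9 FPKM, and in BT549, at 6.05 to 22.1 FPKM, came after KLF6, KLF10, KLF16 and KLF4. KLF10, the TGF-β-inducible early gene, followed in both lines, at 7.03 to 23.0 FPKM in MDA-MB468 and 19.1 to 73.2 FPKM in BT549. The lowest were KLF9, at 1.10 to 4.28 FPKM over the 8 libraries, and KLF2, at 0.783 to 3.53 FPKM. KLF6 was higher in all 4 BT549 than in all 4 MDA-MB468 libraries, and so were KLF4, KLF7 and KLF16, whereas KLF5 was lower in all 4 BT549 libraries. The ranges of KLF2, KLF9, KLF10, KLF11 and KLF13 overlapped between the lines, and the ranges of neighbours in the order, such as KLF10 and KLF16 in MDA-MB468, overlapped too.

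**Figure D1:**
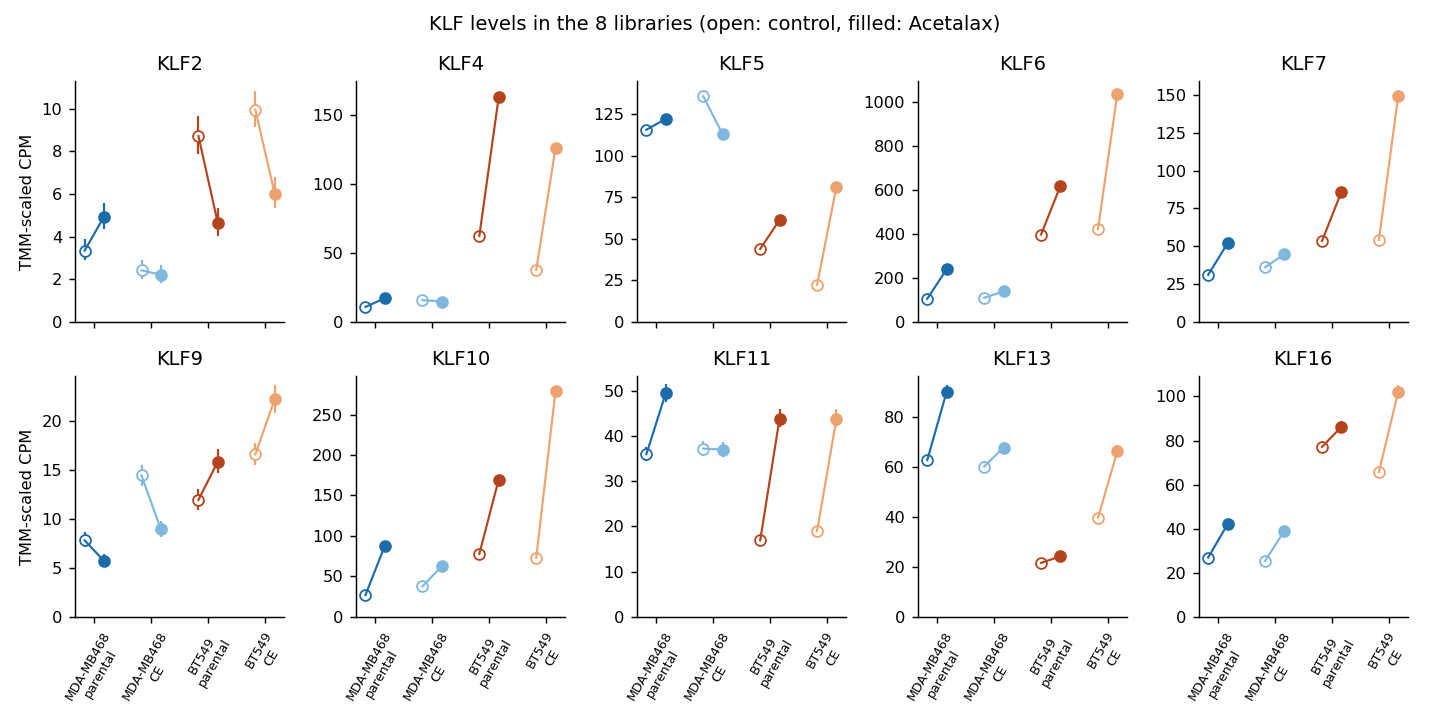
Level of each KLF gene (vertical axis, TMM-scaled CPM from 0, a scale of its own in each panel) in MDA-MB468 parental and CE and BT549 parental and CE cells, with open points for the control library, filled points for the Acetalax library and bars for the 95% counting interval. KLF10 is higher after Acetalax in each of the 4 backgrounds, with 88.0 against 26.9 CPM in MDA-MB468 parental cells and 279.6 against 72.9 CPM in BT549 CE cells.

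In hg19, the build of the deposited table, KLF10 (ENSG00000155090) spans 103661007 to 103668130 of chromosome 8, KLF6 (ENSG00000067082) spans 3818188 to 3827473 of chromosome 10, KLF7 (ENSG00000118263) spans 207938861 to 208031991 of chromosome 2 and KLF4 (ENSG00000136826) spans 110247133 to 110252763 of chromosome 9, all on the minus strand. Exons of KLF4, KLF7, KLF11 and KLF16 overlap a long noncoding RNA on the other strand by 13 to 483 bp. The counted partners had at most 115 counts in a library (MYOSLID, beside KLF7), and the partner of KLF4 was not counted. The kit was directional, but the strand setting of the counting is not given in the sources used here. The pseudogene KLF2P1 had 43 to 71 counts in the MDA-MB468 libraries, where KLF2 itself had 110 to 245 counts, and 0 counts in BT549, where KLF2 had 191 to 521. Whether reads of the 2 genes were mixed in MDA-MB468 was not tested.

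The first comparison set each Acetalax library against the control of its own background. Each line gave a parental and a CE pair, and the CE cells had been derived from that line. The test treated the 4 pairs as independent. KLF10, KLF6 and KLF7 rose after Acetalax over the 4 backgrounds. KLF10 had a log2 fold change of 1.38 (SE 0.20, n = 4 pairs, adjusted p = 0.0313, edgeR's quasi-likelihood test), KLF6 of 0.87 (SE 0.16, adjusted p = 0.0385) and KLF7 of 0.80 (SE 0.18, adjusted p = 0.0469). These 3 of 10 KLF genes stand beside 2.72% of all 19693 genes tested that were called higher, and 0 of 10 were called lower, beside 2.27% of all genes. The median log2 fold change was 0.64 over the 10 genes and -0.04 over all genes tested. It was -0.06 over the 6 other KLF genes tested. Since the 10 were chosen with earlier results of these data known, these shares and medians describe them and test nothing.

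KLF16, a ubiquitous SIN3A-binding repressor, was just outside the threshold, with a log2 fold change of 0.52 (SE 0.12, adjusted p = 0.0502). KLF4 had 0.94 (SE 0.28, adjusted p = 0.0814), KLF11 had 0.76 (SE 0.23, adjusted p = 0.0875) and KLF13 had 0.40 (SE 0.13, adjusted p = 0.0966). KLF5 had 0.52 (SE 0.31, adjusted p = 0.313), KLF2 had -0.31 (SE 0.26, adjusted p = 0.475) and KLF9 had -0.07 (SE 0.22, adjusted p = 0.863). KLF4 thus had a larger mean change than KLF6 and KLF7 with a wider spread over the backgrounds.

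These calls rest on few libraries. Without the MDA-MB468 parental pair edgeR called 0 of 18967 genes, with 3491 at an unadjusted p under 0.05, and the adjusted p of KLF10 was 0.170, with a log2 fold change of 1.28. Without the BT549 parental pair the adjusted p of KLF10 was 0.0515 and none of the 10 was called, without the BT549 CE pair only KLF10 was called (0.0369), and without the MDA-MB468 CE pair KLF4 (0.0449) and KLF11 (0.0483) were called beside KLF10, KLF6 and KLF7. DESeq2 called KLF4, KLF6, KLF7, KLF10, KLF11 and KLF16. It also called far more genes, 2678 of 16264 against 984 of 19693 in edgeR. With scaling by total counts KLF7 had an adjusted p of 0.0513, and the calls over all genes were 374 higher and 685 lower in place of 536 and 448.

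**Figure D2:**
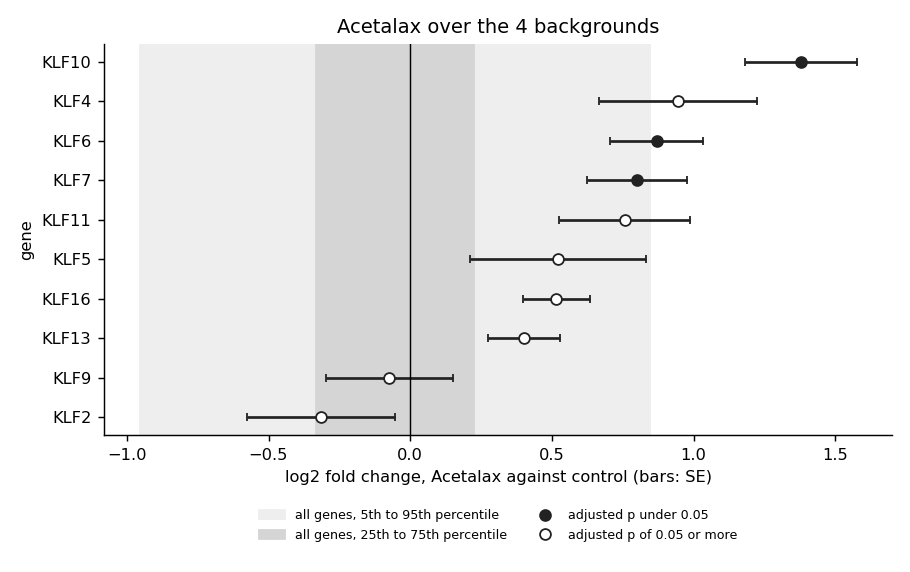
Log2 fold change of each KLF gene for Acetalax against control over the 4 backgrounds (horizontal axis, points with SE bars), with filled points for an adjusted p under 0.05 and shading for the 5th to 95th and 25th to 75th percentiles of all 19693 genes tested. KLF10 at 1.38, KLF4 at 0.94 and KLF6 at 0.87 lie beyond the 95th percentile of 0.85, KLF6 only just.

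KLF10, which binds SIN3A and represses transcription downstream of TGF-β, was at 26.9 CPM in MDA-MB468 parental, 37.6 CPM in MDA-MB468 CE, 77.7 CPM in BT549 parental and 72.9 CPM in BT549 CE control cells. After Acetalax it was at 88.0, 62.4, 169.6 and 279.6 CPM in the same order. The treated library was higher in every background, by 3.28-fold, 1.66-fold, 2.18-fold and 3.84-fold, although the treated MDA-MB468 CE library remained below both BT549 controls. KLF10 was the only one of the 10 at least 1.5-fold higher in all 4 backgrounds, as were 1.21% of all genes tested.

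KLF11, the close relative of KLF10 and likewise induced by TGF-β, was at 36.0, 37.2, 16.9 and 19.0 CPM in the controls and at 49.5, 37.0, 43.9 and 43.9 CPM after Acetalax, in the order MDA-MB468 parental, MDA-MB468 CE, BT549 parental and BT549 CE. BT549 control cells thus had less KLF11 than MDA-MB468 control cells, and both treated BT549 libraries reached the range of MDA-MB468. The log2 ratio was 1.37 (interval 1.249 to 1.502) and 1.21 (1.10 to 1.32) in BT549 parental and CE cells, 0.46 (0.37 to 0.55) in MDA-MB468 parental cells and -0.01 (-0.10 to 0.09) in MDA-MB468 CE cells, where the interval held 0.

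KLF6 was at 104.3, 109.1, 397.5 and 422.4 CPM in the controls and at 239.4, 138.1, 619.2 and 1040.3 CPM after Acetalax, in the same order. The treated library was higher in every background, but the 2 lines did not overlap, with every BT549 library above every MDA-MB468 library. Its log2 ratios were 1.199, 0.34, 0.64 and 1.30.

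KLF7, a broadly expressed factor known from neuronal and adipose differentiation, was at 31.0, 36.0, 53.4 and 54.1 CPM in the controls and at 51.9, 44.7, 85.8 and 149.5 CPM after Acetalax. Its log2 ratios of 0.74, 0.31, 0.69 and 1.47 followed the order of backgrounds seen for KLF6 in that MDA-MB468 CE cells had the smallest and BT549 CE cells the largest.

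KLF4, a regulator of epithelial differentiation and of pluripotency, was at 10.7, 15.7, 62.3 and 37.7 CPM in the controls and at 17.2, 14.6, 163.2 and 126.6 CPM after Acetalax. All 4 MDA-MB468 libraries were low, whereas the treated BT549 libraries were 2.62-fold (parental) and 3.35-fold (CE) above their controls. In MDA-MB468 the ratio was 1.60-fold in parental cells, and in CE cells the log2 ratio of -0.10 had an interval that held 0 (-0.25 to 0.05).

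KLF5, which promotes proliferation of basal breast epithelium and is turned over by the ubiquitin ligases FBXW7 and WWP1, was high in all MDA-MB468 libraries, at 115.7 and 135.8 CPM in parental and CE controls and at 122.2 and 112.9 CPM after Acetalax. In BT549 it was at 43.8 and 22.3 CPM in the controls and at 61.3 and 81.4 CPM after Acetalax. Its log2 ratio was 1.87 (1.78 to 1.97) in BT549 CE cells, the second largest value of any KLF gene in any background after KLF10 in the same cells. It was 0.48 in parental BT549 cells, and 0.08 and -0.27 in MDA-MB468 parental and CE cells.

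KLF13 and KLF16, SIN3A-binding repressors of the same subgroup as KLF9, were higher after Acetalax in each background. For KLF16 the controls were at 26.9, 25.3, 77.1 and 65.6 CPM and the treated libraries at 41.9, 39.0, 86.1 and 102.1 CPM. Its log2 ratios lay close together in 3 backgrounds, at 0.64, 0.62 and 0.64, and the ratio was 0.16 in BT549 parental cells. For KLF13 the controls were at 62.8, 60.2, 21.6 and 39.7 CPM and the treated libraries at 90.2, 67.9, 24.2 and 66.3 CPM, with log2 ratios of 0.52, 0.17, 0.17 and 0.74.

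With KLF6, KLF7 and KLF10, these made 5 of 10 KLF genes higher in all 4 backgrounds, as were 16.1% of all genes tested, and 0 of 10 were lower in all 4, as were 19% of all genes. The sign of these 5 was the same with total counts and with DESeq2's size factors. Total-count scaling moved the median ratio of all genes from -0.05 to -0.21 in BT549 CE cells.

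KLF9, a hormone- and glucocorticoid-responsive factor, differed in sign by line. In MDA-MB468 it was at 7.82 CPM in parental and 14.4 CPM in CE control cells and at 5.71 and 8.94 CPM after Acetalax. In BT549 it was at 11.95 and 16.6 CPM in the controls and at 15.9 and 22.2 CPM after Acetalax. All 4 intervals excluded 0, with log2 ratios of -0.45 and -0.69 in MDA-MB468 and 0.41 and 0.42 in BT549. Lower values in both MDA-MB468 and higher values in both BT549 backgrounds were found for 1 of 10 KLF genes and for 9.22% of all genes tested.

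KLF2, which in endothelium is driven by the MEK5-ERK5-MEF2 pathway, was lower after Acetalax in BT549, at 4.63 against 8.72 CPM in parental and 6.00 against 9.96 CPM in CE cells, with log2 ratios of -0.91 (-1.17 to -0.66) and -0.73 (-0.95 to -0.51). In MDA-MB468 parental cells KLF2 was higher after Acetalax, at 4.93 against 3.34 CPM, with a log2 ratio of 0.56 (0.27 to 0.85). In MDA-MB468 CE cells it was at 2.21 against 2.41 CPM, with a log2 ratio of -0.13 whose interval held 0 (-0.52 to 0.26). These MDA-MB468 values rest on at most 245 counts and stand beside the pseudogene counts given above.

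**Figure D3:**
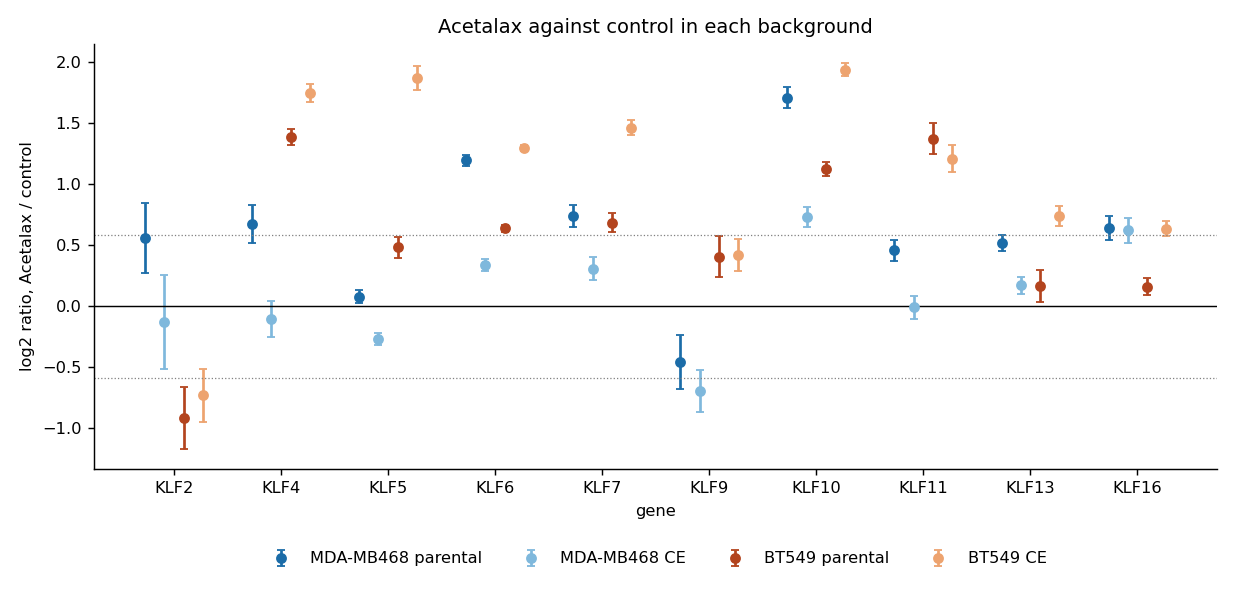
Log2 ratio of the Acetalax to the control library (vertical axis) for each KLF gene in the 4 backgrounds, with bars for the 95% counting interval and dotted lines at 1.5-fold in each direction. MDA-MB468 CE cells have the lowest ratios for KLF4, KLF5, KLF6, KLF7, KLF9, KLF10 and KLF11, and KLF9 lies below 0 in both MDA-MB468 backgrounds and above 0 in both BT549 backgrounds.

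By background, 5 of 10 KLF genes were at least 1.5-fold higher in MDA-MB468 parental cells (15.5% of all genes tested) and 0 at least 1.5-fold lower (17.4%). In BT549 parental cells 5 were higher (14.2%) and KLF2 alone was lower (13.6%). In MDA-MB468 CE cells only KLF10 and KLF16 were higher (11.5%) and KLF9 was lower (13.4%). In BT549 CE cells 8 were higher (16.4%), all but KLF2 and KLF9, and KLF2 was lower (25.2%). The study's log2(FPKM+1) scale was computed here from total counts without TMM, and it shrinks the ratios of weakly expressed genes. There, 2 were at least 1.5-fold higher in MDA-MB468 parental, 3 in BT549 parental, 1 in MDA-MB468 CE and 6 in BT549 CE cells. In MDA-MB468 CE cells 0 were that much lower. KLF6 in BT549 parental cells went from 0.64 with TMM to 0.56 with total counts and 0.55 on that scale. The share of all genes was not computed on that scale. With TMM, the median log2 ratio of the 10 was 0.60 in MDA-MB468 parental, 0.56 in BT549 parental, 0.08 in MDA-MB468 CE and 1.25 in BT549 CE cells. The medians of all genes lay between -0.05 and 0.02.

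Exposure history went with the size of the Acetalax ratio in opposite directions in the 2 lines. In MDA-MB468 the ratio was lower in CE than in parental cells for 10 of 10 KLF genes, against 46.8% of all genes tested, and for 8 of them the counting intervals of the 2 ratios did not overlap. The largest such differences were -0.98 on the log2 scale for KLF10, -0.86 for KLF6 and -0.78 for KLF4, and the median of the 10 was -0.45 (0.03 over all genes). In BT549 the ratio was higher in CE than in parental cells for 9 of 10, all but KLF11, against 45.3% of all genes, and for 7 of them the intervals did not overlap. KLF5 differed by 1.39, KLF10 by 0.81 and KLF7 by 0.78, and the median was 0.53 (-0.05 over all genes). Both shifts together were found for 9 of 10 KLF genes and for 23.9% of all genes. They were also found for SRF, ELK1, ELK3, EDN1 and CDKN1A, the listed regulators and targets called higher after Acetalax (below). For the target SMAD7, which was not called, the ratio was higher in CE cells of both lines. Since the 10 were chosen with earlier results of these data known, these shares describe them and test nothing.

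**Figure D4:**
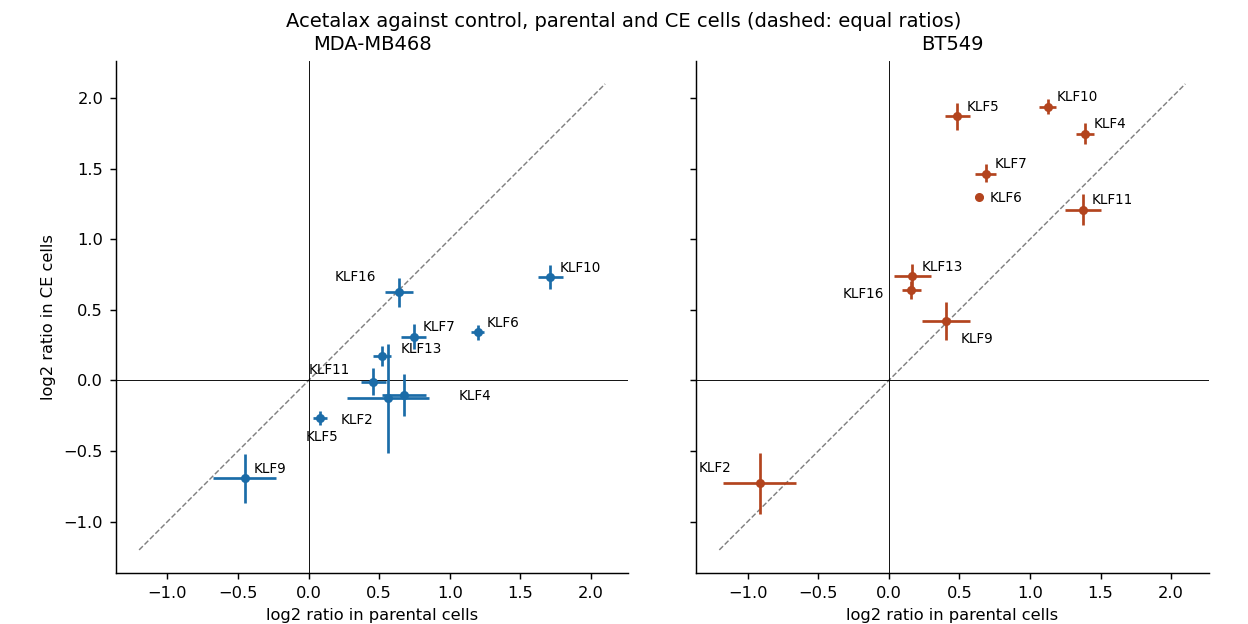
Log2 ratio of Acetalax to control in parental cells (horizontal axis) and in CE cells (vertical axis) of each line, 1 point per KLF gene with 95% counting intervals and a dashed line where the ratios are equal. All 10 points lie below the line in MDA-MB468, with KLF16 close to it, and 9 of 10 lie above it in BT549.

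With 1 library per condition, this opposite shift of the 2 lines leaves no residual spread and could not be tested. The test that takes the lines as repeats called 0 of 10 KLF genes, and 0% of all genes, for a different Acetalax response of CE and parental cells. For KLF10 the difference was -0.08 (SE 0.42, adjusted p = 1). edgeR found 91 of 19693 genes at an unadjusted p under 0.05, none of them a KLF gene described here, and DESeq2 called 0. Tested within 1 history, 0 of 10 were called for parental cells (0% of all genes) and 0 of 10 for CE cells (0%). At an unadjusted p under 0.05 there were 5 of 10 (KLF4, KLF6, KLF7, KLF10 and KLF11) among 1710 genes in parental cells and 4 of 10 (KLF6, KLF7, KLF10 and KLF16) among 2311 in CE cells. DESeq2 called 75 and 289 genes.

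The response of BT549 was compared with that of MDA-MB468, taking parental and CE cells as repeats. None of the 10 passed (0 of 10, beside 1.78% of all genes). The differences nearest the threshold were 1.06 for KLF11 (SE 0.22, adjusted p = 0.0601), 1.28 for KLF4 (SE 0.27, adjusted p = 0.0664) and 0.99 for KLF9 (SE 0.24, adjusted p = 0.0887), each with a higher ratio in BT549. KLF5 differed by 1.27 (SE 0.40, adjusted p = 0.169) and KLF2 by -1.06 (SE 0.33, adjusted p = 0.162). KLF11 passed with DESeq2's size factors in edgeR (adjusted p = 0.0488), where 467 of 19693 genes were called. DESeq2 called KLF4 (0.00596), KLF9 (0.0221) and KLF11 (0.00416), among 926 of 14103 genes. KLF6, KLF10 and KLF13 differed by 0.20 (SE 0.30), 0.31 (SE 0.36) and 0.11 (SE 0.24).

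To see how chronic exposure itself went with KLF levels, CE control cells were compared with parental control cells. KLF9 was higher in CE cells of both lines, by a log2 ratio of 0.89 (0.71 to 1.07) in MDA-MB468 and 0.47 (0.31 to 0.64) in BT549. KLF13 was higher in BT549 CE cells, at 39.7 against 21.6 CPM, a log2 ratio of 0.88 (0.76 to 0.99), and was at 60.2 against 62.8 CPM in MDA-MB468. KLF4 and KLF5 were lower in BT549 CE cells, by log2 ratios of -0.72 (-0.81 to -0.64) and -0.98 (-1.08 to -0.87), and higher in MDA-MB468 CE cells, by 0.55 and 0.23. KLF10 was higher in MDA-MB468 CE cells by 0.48 and was at -0.09 in BT549.

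In MDA-MB468, KLF9 was the only 1 of 10 at least 1.5-fold higher (12% of all genes tested) and 0 were that much lower (9.36%). In BT549, KLF13 was 1 of 10 higher (20.7%), and KLF4 and KLF5 made 2 of 10 lower (17.7%). Over the 2 lines edgeR called 0 of 10, and 0% of the 18377 genes tested, with 610 at an unadjusted p under 0.05 and 46 called by DESeq2. The log2 fold change of KLF9 was 0.68 (SE 0.28, adjusted p = 0.947) with 1 residual degree of freedom, and 0.62 (adjusted p = 0.186) when the treated libraries were added. Since CE control cells of each line are 1 library of resistant cells, passage, selection of a clone and Acetalax exposure cannot be told apart.

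**Figure D5:**
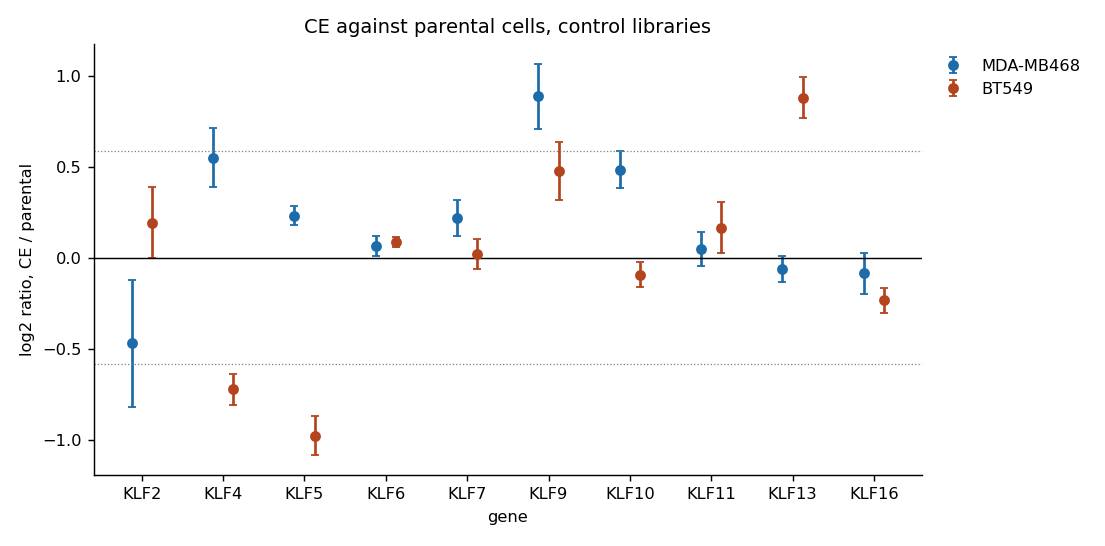
Log2 ratio of the CE control to the parental control library (vertical axis) for each KLF gene in MDA-MB468 and BT549, with bars for the 95% counting interval and dotted lines at 1.5-fold in each direction. KLF9 lies above 0 in both lines, at 0.89 and 0.47, and KLF4 and KLF5 lie above 0 in MDA-MB468 and below 0 in BT549.

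Among the 7 other KLF genes in the list, 6 were tested. Of these, 0 were called higher after Acetalax (2.72% of all genes tested) and 1 was called lower (2.27%). This was KLF8, a CtBP-dependent repressor, with a log2 fold change of -0.92 (SE 0.18, adjusted p = 0.0432), which rests on MDA-MB468, where it went from 2318 to 1183 counts in parental and from 3442 to 1923 counts in CE cells, since BT549 had 0 to 4 counts. The related SP genes, which bind GC boxes, had 0 of 7 tested called in either direction, beside the same shares of all genes. Their median log2 fold change was 0.24. The median of the other KLF genes was -0.06.

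Among 21 regulators of KLF genes (the MEK5-ERK5-MEF2 pathway, serum response factor and its partners, SMAD proteins, the glucocorticoid receptor, clock proteins and ubiquitin ligases), 3 were called higher and 0 lower, beside 2.72% and 2.27% of all genes tested. SRF, which drives immediate early genes, rose by 1.05 (SE 0.17, adjusted p = 0.0361), and its ternary complex partners ELK1 and ELK3 rose by 0.61 (SE 0.11, adjusted p = 0.0377) and 0.99 (SE 0.21, adjusted p = 0.0445). SRF went from 68.9 to 212.8 CPM in MDA-MB468 parental, from 62.8 to 110.2 CPM in MDA-MB468 CE, from 131.7 to 192.3 CPM in BT549 parental and from 104 to 243.2 CPM in BT549 CE cells. As with KLF10, the ratio of SRF was smaller in CE than in parental cells of MDA-MB468 (0.81 against 1.63) and larger in BT549 (1.23 against 0.55).

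Of 11 co-regulators, 0 were called in either direction, and 3 were lower in all 4 backgrounds, a share near the 19% of all genes tested. They were NCOR1 (-0.30, SE 0.09, adjusted p = 0.0796), HDAC1 (-0.21, SE 0.08, adjusted p = 0.159) and HDAC3 (-0.12, SE 0.09, adjusted p = 0.436).

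Of 17 genes known as KLF targets 14 were tested, and 2 were called higher and 0 lower, beside the same shares of all genes. EDN1, the vasoconstrictor endothelin, rose by 1.41 (SE 0.16, adjusted p = 0.0257), and CDKN1A, the p21 cell cycle inhibitor, rose by 1.54 (SE 0.31, adjusted p = 0.0424). CDKN1A went from 21.9 to 156 CPM in MDA-MB468 parental cells, from 33.2 to 53.7 CPM in MDA-MB468 CE cells, from 23.2 to 54.3 CPM in BT549 parental cells and from 51.9 to 141.4 CPM in BT549 CE cells. SMAD7, which is repressed by KLF10 and limits TGF-β signaling, had a log2 fold change of 0.60 (SE 0.19, adjusted p = 0.0969). The median of this list was 0.62.

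Some marker genes moved with the same comparison. The epithelial markers KRT17 and EGFR were called higher after Acetalax (1.72 and 1.01) and ERBB2 was called lower (-0.70). That made 2 of 6 epithelial and 1 of 2 tested receptor markers, beside 2.72% of all genes called higher and 2.27% lower. Of the mesenchymal, endothelial and blood cell markers 0 were called. The call of KRT17 rests on MDA-MB468, since KRT17 was at most 0.32 CPM in BT549. The epithelial markers summed to 5750 to 15100 CPM in MDA-MB468 and 352 to 672 CPM in BT549. Their part in the KLF results was not tested.

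The 10 KLF genes also resembled each other to different degrees. After the mean of each line was removed, log2 CPM over the 8 libraries correlated at r = 0.96 between KLF10 and KLF7, 0.95 between KLF10 and KLF6, 0.94 between KLF6 and KLF7 and 0.89 between KLF4 and KLF11. KLF2 was at -0.66 with KLF4, and KLF9 was at 0.08 with KLF10. These are descriptions over libraries that share the treatment and have no p.

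Over the 11103 genes whose mean reached 5 CPM, those most like KLF10 by this measure were TGFB2, a TGF-β ligand (r = 0.983), the transcription factor RUNX1 (0.981) and SLC4A7, a bicarbonate transporter (0.98). TGFB2 had log2 ratios of 2.01, 1.14, 0.94 and 2.41 in MDA-MB468 parental, MDA-MB468 CE, BT549 parental and BT549 CE cells. For KLF6 they were NUPL1 (0.991), FNTA (0.99) and MAP3K2 (0.989), for KLF7 they were CREB1 (0.991), UBE2Z (0.988) and PLEKHM2 (0.987), and for KLF4 they were DFNB31 (0.985), ATL2 (0.982) and RNF185 (0.982). CREB1, the cyclic AMP response element binding protein, had log2 ratios of 0.60, 0.22, 0.48 and 1.30, beside 0.74, 0.31, 0.69 and 1.47 for KLF7.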

How the data were processed

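RNA-seq was available for 8 libraries of MDA-MB468 and BT549 cells. Polyadenylated RNA was made into directional libraries, and reads were aligned to hg19 with STAR and counted per gene with its GeneCounts option. The authors deposited these raw counts per gene, whole numbers without normalization. STAR 2.7.11b is named in the submitters' processing notes, and the annotation and strand column are not given in the sources used here. Its 58154 rows cover 55679 identifiers, of which 1392 were repeated and used 1 time, 3 of them with differing counts and no KLF gene among them, and 28 symbols turned into dates were matched by identifier. Rows that name no gene numbered 0.

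Groups came from the sample labels. Log2 ratios of 2 libraries used TMM-scaled CPM with 0.5 counts added, and their 95% intervals are exact (Clopper-Pearson) binomial intervals given both counts. Intervals of a level in CPM are Wilson intervals. FPKM used merged exon lengths of GENCODE for hg19 (matched for 55663 identifiers). Tests across all genes were run in edgeR 4.0.16 under R 4.3.3 with the quasi-likelihood method, TMM scaling, filterByExpr and Benjamini-Hochberg adjustment at a threshold of 0.05. The fits of Acetalax had an intercept for each background. The fit of the 4 controls had an intercept for each line, and with the treated libraries added an intercept for each line and treatment. SE was computed as the log2 fold change divided by the root of F. DESeq2 1.42.0 was an alternative, as were other scalings, no filter and leaving out a background. The edgeR and DESeq2 fits of Acetalax over 4 backgrounds, of the difference between lines and of the controls were tried first on simulated data. The simulated spread between libraries was set below that of the fits over 4 backgrounds and of the controls. The other comparisons, the other scalings, the fits without a filter and those with a background left out were not tried so. The fit over 4 backgrounds had 3 residual degrees of freedom, the fits within a history and the tests of differences 2, and the fit of the 4 controls 1. Nothing in the labels states that libraries came from separate cultures, so p-values measure only the spread between these libraries.

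Named genes were the 10 KLF genes, of each list up to 3 genes whose mean reached 5 CPM, with 1 sign in all 4 backgrounds whose smallest ratio was largest in size, and the 3 genes most like each of the 4 KLF genes with the largest fold change. KLF3, KLF8, KLF14, KRT17, EGFR and the genes given as identity markers fall outside this rule, and KLF3, KLF8, KLF14, KRT17, EGFR and ERBB2 were singled out after their values were seen. The KLF genes and the lists were chosen with earlier results of these data known. Promoter windows came from RefSeq, matched by symbol.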

Additional observations from a re-analysis of the deposited data

Results flagged for a closer look

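KLF9, KLF3 and KLF14 were flagged because the Acetalax ratio had opposite signs in the 2 lines, with parental and CE cells on the same side. The direction of KLF9 and KLF3, lower in MDA-MB468 and higher in BT549, was found for 9.22% of all genes tested. For the reverse direction, that of KLF14, the share of all genes was not computed. The flags therefore describe these genes and do not set them apart from other genes. For KLF9 the BT549 response exceeded the MDA-MB468 response by 0.99 on the log2 scale (SE 0.24, adjusted p = 0.0887, edgeR), which missed the threshold. KLF3, a CtBP-dependent repressor outside the 10 genes, differed by 1.19 (SE 0.19, adjusted p = 0.0398, edgeR), where 1.78% of all genes were called. Its log2 ratios were -0.54 and -0.87 in MDA-MB468 parental and CE cells and 0.40 and 0.57 in those of BT549, on 1893 to 3794 counts. KLF14 differed by -1.98 (SE 0.41, adjusted p = 0.0626) on 18 to 104 counts, with 34 against 18 counts in MDA-MB468 parental cells and 19 against 39 in BT549 parental cells. No group has more than 1 library, so no library could be compared with others of its group.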

How the results depend on the processing

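The KLF genes called for Acetalax over 4 backgrounds were 3 in the reported fit, 8 without a filter on low counts and 6 with DESeq2, and 0 to 5 when a background was left out. The genes called were 984, 3585 and 2678, and 0 to 554 when a background was left out. For Acetalax in parental cells they were 0, 643 without the filter and 75 with DESeq2 (0 to 182 when a background was left out), of which 4 were KLF genes described here without the filter and 0 to 1 with a background left out. For CE cells they were 0, 1080 and 289 (0 to 207), with 5 of them without the filter, 1 with DESeq2 and 0 to 4 with a background left out. For CE against parental controls 0 became 45 without the filter, 46 with DESeq2 and 23 with the treated libraries added, with 0 of the 10 KLF genes in each. For the difference between lines 351 became 1632 and 926, with 5 and 3 of the 10, and 1 with DESeq2's size factors. For the difference between histories 0 became 3 without the filter. Where a fit keeps 1 background of a kind, the spread is taken from the others.

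The study's log2(FPKM+1) scale was computed from total counts without TMM. On it, 2 of the 10 were at least 1.5-fold higher after Acetalax in MDA-MB468 parental and 3 in BT549 parental cells. In CE cells there were 1 in MDA-MB468 and 6 in BT549, and 0 were that much lower in MDA-MB468. Total counts gave 1 higher in MDA-MB468 CE cells and 2 higher in MDA-MB468 CE against parental controls. The signs of KLF9, KLF2, KLF4 and KLF5 turned in some fits with a background left out. Over 4 backgrounds KLF9 ranged from -0.24 to 0.15. In parental cells KLF9 ranged from -0.40 to 0.39 and KLF2 from -0.93 to 0.61. In CE cells KLF4 ranged from -0.094 to 1.80 and KLF5 from -0.26 to 1.92, lowest without BT549 CE cells, and KLF9 ranged from -0.69 to 0.47. KLF11 was -0.051 between CE and parental cells with the treated libraries added. The cause of these changes was not tested. The labels give no replicate numbers to pair by, and the reported fits already set each treated library against the control of its own background.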
